A study of Homo sapiens with 24 samples.

Results

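The genes described here encode the subunits of the hypoxia-inducible factors (HIFs): the alpha subunits HIF1A, EPAS1 (also called HIF2A) and HIF3A, and the beta subunits ARNT and ARNT2. They were chosen by name as the rows of the count table for these 5 genes, out of 26475 gene symbols, and 4 of the 5 passed the filter on low counts. Their transcripts were measured by RNA-seq in 3 clones of HK2, an immortalised human cell line from the proximal tubule of the kidney. Each clone is a single-cell clone with a VHL transgene that is on with doxycycline (dox) and off after dox withdrawal. By the study's account, WT8 keeps its own VHL, whereas CRISPR-Cas9 removed it in MUT10 and MUT35. For each clone there are 4 replicate libraries of cells kept on dox (dox on) and 4 of cells from which it was withdrawn (dox off), 24 libraries in 6 groups. All were grown in RPMI medium with 10% serum. A knockout state is represented by only 2 clones and the intact state by 1, so a difference between genotypes and a difference between clones cannot be told apart. The genotype labels give wild type for every WT8 library and for MUT10 and MUT35 with dox, while the design text of the series counts WT8 without dox as a knockout and a sentence of the methods counts WT8 among clones that carry a VHL mutation. The time between dox withdrawal and harvest is not given for these libraries in the sources used here.

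A HIF is a dimer of an alpha and a beta subunit that binds DNA through basic helix-loop-helix and PAS domains. In oxygenated cells, prolyl hydroxylases (the EGLN enzymes) modify the alpha subunit, VHL recognises the modified protein, and the ubiquitin ligase built around VHL marks it for degradation. When oxygen or VHL is missing, the alpha protein lasts, pairs with ARNT and switches on genes of glycolysis, angiogenesis and oxygen supply. This control acts on the protein, whereas the counts described here are of transcripts, and no HIF protein was measured in them. In kidney epithelium HIF1A and EPAS1 share some targets and differ in others, and loss of VHL with lasting HIF protein is a hallmark of clear cell renal cell carcinoma.

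The tissue label of the libraries names lung beside the HK2 line. Of 5 lung markers none had a median over 1 CPM (counts of the gene per 1000000 counts of its library), and the surfactant genes SFTPA1 and SFTPC were at 0 in all 24 libraries. Of 13 proximal tubule markers, 2 had a median over 10 CPM, PAX8 (347 CPM) and GGT1 (35.4 CPM), and the tubule transporters SLC22A6 and SLC22A8 were at 0 in every library. In bulk RNA, fewer cells that use a gene and less RNA of it per cell cannot be told apart.

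Library totals ranged from 5206663 to 18196003 counts. VHL itself, the gene set by dox, was at 199 to 235 CPM with dox and 26.1 to 32.7 CPM after withdrawal in WT8, at 369 to 400 and 27.0 to 34.1 CPM in MUT10, and at 192 to 267 and 17.8 to 18.6 CPM in MUT35. The counts do not separate the transgene from endogenous VHL. The libraries also differed in how expression followed the GC content of the transcript. Relative to the mean library, the change of log2 CPM along GC content was negative in all 12 libraries with dox (-0.3432 to -0.0276 per 10 percentage points of GC) and positive in 11 of 12 libraries after withdrawal (0.1388 to 0.4), with MUT10 dox off replicate 4 at -0.0099. Which libraries were prepared together is not given in the sources used here, so an effect of dox and one of library handling cannot be told apart. The results on the subunits are therefore given with each library's GC trend removed as well. HIF1A is poor in GC (39.4% of its transcript, with 14.4% of 13479 tested genes lower), ARNT is near the median of 47.9% (46.2%), and EPAS1 (52.6%), ARNT2 (53.1%) and HIF3A (54.6%) lie above it.

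The promoters of HIF1A and EPAS1 are shown because these genes carry the alpha transcripts of the cells and, with TMM scaling, changed in opposite directions with dox. No clone had both called with the GC trend removed. Each is the 250 bases upstream of a RefSeq start site on GRCh38.p14, 5′ to 3′, in lower case, with matches to the core of the hypoxia response element (ACGTG or GCGTG, searched on both strands) in capitals. The HIF1A window is chr14:61695263-61695512 on the plus strand and the EPAS1 window chr2:46297157-46297406 on the plus strand, which lies inside the EPAS1 span of the GENCODE annotation where the gene starts further upstream.
HIF1A: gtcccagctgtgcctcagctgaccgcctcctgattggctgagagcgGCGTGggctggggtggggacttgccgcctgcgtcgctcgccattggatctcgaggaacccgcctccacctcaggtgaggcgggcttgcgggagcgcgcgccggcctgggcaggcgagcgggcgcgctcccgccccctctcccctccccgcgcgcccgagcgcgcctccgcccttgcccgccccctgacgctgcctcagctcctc
EPAS1: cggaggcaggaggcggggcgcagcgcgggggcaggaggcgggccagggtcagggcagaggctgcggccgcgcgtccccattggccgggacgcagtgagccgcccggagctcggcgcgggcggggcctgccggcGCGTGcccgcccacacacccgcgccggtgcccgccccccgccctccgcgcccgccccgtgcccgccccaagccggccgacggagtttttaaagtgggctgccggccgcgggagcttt
Each window held 1 match, a GCGTG on the plus strand, which began 204 bases before the start site of HIF1A and 117 bases before that of EPAS1. Of 35116 windows of this length, 43.2% held a match to either form and 18.5% a match to ACGTG, so a single match is common. The ARNT window (chr1:150876600-150876849, minus strand) and a further HIF1A window (chr14:61697462-61697711) held none. Of 3 HIF3A windows, the first (chr19:46296792-46297041) held 3 matches, a number reached by 7.8% of all windows, and the others held none. Promoter windows were found for 4 of the 5 genes. A match of these letters is a description of the sequence and was not tied to any binding measurement.

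HIF1A was the most abundant HIF subunit transcript in every library. Per kilobase of transcript, which allows levels of different genes to be compared, its group means ran from 350 ± 27 CPM per kb (SD, n = 4; MUT35 dox off) to 593 ± 15 CPM per kb (SD, n = 4; MUT35 dox on). EPAS1 ran from 24.9 ± 1.2 (SD, n = 4; MUT10 dox on) to 72.0 ± 5.9 CPM per kb (SD, n = 4; MUT10 dox off), ARNT from 6.66 ± 0.57 (SD, n = 4; WT8 dox on) to 9.49 ± 0.49 CPM per kb (SD, n = 4; MUT10 dox off), and ARNT2 from 0.0219 to 1.00 CPM per kb. HIF3A stayed between 0.0367 and 0.102 CPM per kb. The order HIF1A, EPAS1, ARNT therefore held in all 6 groups, and the alpha transcripts outnumbered those of the beta subunits.

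Across the 15 within-clone comparisons of dox off with dox on (5 genes in 3 clones), the libraries of the 2 dox states did not overlap in 11. Each of those 11 had p = 0.029 in a 2-sided exact permutation test of mean log2 CPM, the smallest p that 4 libraries against 4 allow, and an adjusted p of 0.039 over the 15 tests. HIF1A, EPAS1 and ARNT were apart in all 3 clones, ARNT2 in MUT35 and HIF3A in WT8. Separation was common in these data: 55.6% of the 13900 genes tested did not overlap between dox states in WT8, 49.8% in MUT10 and 59.2% in MUT35. The GC slope of the libraries was also apart between dox states in each clone.

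HIF1A (ENSG00000100644, chr14:61695513-61748259 on the plus strand of hg38) encodes the alpha subunit best known for inducing glycolytic genes. Its transcript was lower after dox withdrawal in all 3 clones with TMM scaling, which sets libraries to a common level through the bulk of their genes, and with the GC trend removed it was lower in MUT35 only. In WT8, it was at 2241, 1998.5, 2015.5 and 2029 CPM with dox and at 1536, 1528.5, 1607 and 1558 CPM after withdrawal. MUT10 had 2318, 2097, 2263 and 2286 CPM with dox and 1482, 1710, 1635 and 2071 CPM after withdrawal. MUT35 had 2293, 2318, 2427 and 2319.5 CPM with dox and 1449, 1382, 1465 and 1228 CPM after withdrawal. Every library after withdrawal lay below every library with dox of its clone, but MUT10 dox off replicate 4 came close to the lowest MUT10 library with dox.

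Genes were called at an adjusted p under 0.05 in edgeR's quasi-likelihood test, with the Benjamini-Hochberg adjustment over all 13900 genes. In this test the log2 fold change of HIF1A (dox off minus dox on) was -0.41 in WT8 (SE 0.071, adjusted p = 2.87e-05), -0.38 in MUT10 (SE 0.071, adjusted p = 4.61e-05) and -0.76 in MUT35 (SE 0.071, adjusted p = 2.43e-09). With the GC trend removed these became 0.05 (adjusted p = 0.394), 0.06 (adjusted p = 0.235) and -0.34 (SE 0.042, adjusted p = 8.74e-08), so the fall in WT8 and MUT10 was no longer called and its sign turned. On that scale MUT35 dox off (10.48 to 10.68 log2 CPM) lay below the other 5 groups, which ran from 10.73 to 11.04 log2 CPM. The 2 MUT10 libraries whose GC slope was nearest 0 were dox off replicate 4 (-0.0099) and dox on replicate 2 (-0.0276). Their HIF1A levels were 2071 and 2097 CPM, and they belong to opposite dox states. This is 1 library per dox state of 1 clone, and whether the GC slope or dox sets the HIF1A level was not tested.

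The withdrawal effect on HIF1A was more negative in MUT35 than in MUT10 with either scaling. MUT10 minus MUT35 was 0.38 on the log2 scale (SE 0.10, adjusted p = 0.0115), and 0.39 (SE 0.060, adjusted p = 1.14e-05) with the GC trend removed. Averaged over MUT10 and MUT35 and set against WT8, the effect was -0.16 (SE 0.087, adjusted p = 0.204), which was not called. It was called at -0.19 (adjusted p = 0.00565) with the GC trend removed and at -0.21 (adjusted p = 0.0209) without MUT10 dox off replicate 4. With the GC trend removed, the effect was below that of WT8 (0.05) in MUT35 (-0.34) alone, and MUT10 had 0.06. Mean levels of the mutant clones and WT8 differed by -0.01 on the log2 scale after withdrawal (adjusted p = 0.874), with the mutant clones on both sides of WT8. With the GC trend removed, MUT10 was then at 10.99 to 11.04 log2 CPM, WT8 at 10.79 to 10.88 and MUT35 at 10.48 to 10.68. With dox the difference was 0.14 (adjusted p = 0.0595), near the threshold and called in several alternatives (0.17, adjusted p = 0.000258, with the GC trend removed). In order of mean level the groups were MUT35, MUT10 and WT8 with dox, then MUT10, WT8 and MUT35 after withdrawal, and the only neighbours in that order whose libraries did not overlap were WT8 dox off and MUT35 dox off.

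Of the antisense RNAs at the HIF1A locus, HIF1A-AS1 and HIF1A-AS2 were in the count table. HIF1A-AS1 shares 133 exonic bases with HIF1A on the opposite strand, and whether the counting used strand is not given in the sources used here. Its counts were 4.14 to 33.28 per library, against 11423 to 33726 for HIF1A, so reads shared between them could change HIF1A by very little and HIF1A-AS1 by much. With that limit, HIF1A-AS1 was at 1.10 to 1.57 CPM with dox and 0.344 to 0.517 CPM after withdrawal in MUT10, a log2 fold change of -1.62 (SE 0.41, adjusted p = 0.00123). It was not called in WT8 (0.19, adjusted p = 0.679) or MUT35 (-0.63, adjusted p = 0.0847), and its withdrawal effect in the mutant clones minus that in WT8 was -1.31 (SE 0.44, adjusted p = 0.0323). HIF1A-AS2 did not pass the filter, with at most 12.07 counts in a library.

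EPAS1 (ENSG00000116016, chr2:46293667-46386697 on the plus strand) encodes the alpha subunit HIF2A, the one most often tied to tumour growth in clear cell renal carcinoma. Of the 4 genes tested, its transcript had the largest change, and that change was in MUT10. With dox, MUT10 had 125, 137, 129 and 122.5 CPM, and after withdrawal 389, 383, 386 and 325 CPM. WT8 had 242, 283.5, 261 and 257 CPM with dox and 358, 364, 352 and 340 CPM after withdrawal. MUT35 had 260, 293.5, 271 and 271 CPM with dox and 295, 317, 297.5 and 301.5 CPM after withdrawal. The 4 MUT10 libraries with dox lay below all other 20 libraries, and in MUT35 the lowest library after withdrawal (294.6 CPM) only just exceeded the highest with dox (293.5 CPM).

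The log2 fold change of EPAS1 was 1.53 in MUT10 (SE 0.060, adjusted p = 4.14e-17), a 2.89-fold rise that was larger than the change of 95.2% of the genes tested. In WT8 it was 0.44 (SE 0.059, adjusted p = 1.62e-06), a 1.35-fold rise. MUT35 had 0.15 (SE 0.058, adjusted p = 0.0328), which was not called with the GC trend removed, where it was -0.04 (adjusted p = 0.496). Nor was it called when 1 of 7 libraries was left out, namely MUT10 dox on replicate 2 or 4, MUT35 dox on replicate 1, 3 or 4, or MUT35 dox off replicate 2 or 4 (0.12 to 0.15, adjusted p up to 0.107). With the GC trend removed the rise was 1.37 in MUT10 (adjusted p = 1.46e-20) and 0.28 in WT8 (adjusted p = 1.85e-05).

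The response of EPAS1 therefore differed between the knockout clones, by 1.39 on the log2 scale for MUT10 minus MUT35 (SE 0.083, adjusted p = 5.33e-12) and by 1.40 with the GC trend removed (adjusted p = 9.18e-16). The mean of MUT10 and MUT35 exceeded WT8 by 0.40 (SE 0.072, adjusted p = 0.000141), although the MUT35 change of 0.15 was smaller than the WT8 change of 0.44. With dox, the mean of the mutant clones was below WT8 by 0.48 (log2 fold change -0.48, SE 0.051, adjusted p = 1.73e-08), with MUT10 at 128 ± 6.35 CPM (SD, n = 4), MUT35 at 274 ± 14 CPM (SD, n = 4) and WT8 at 261 ± 17 CPM (SD, n = 4). After withdrawal the difference was -0.08 (SE 0.050, adjusted p = 0.197), with means of 371, 303 and 354 CPM. MUT10 with dox also had the highest VHL level of the 6 groups, 381 ± 15 CPM (SD, n = 4), and whether VHL level has a part in its low EPAS1 was not tested. In the order of group means, EPAS1 in MUT10 dox off overlapped WT8 dox off, MUT35 dox off stood apart from WT8 dox off above it and MUT35 dox on below it, MUT35 dox on overlapped WT8 dox on, and MUT10 dox on stood apart from all.

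The make-up of the alpha transcripts differed between the dox states. As a percentage of HIF1A, EPAS1 and HIF3A together, each per transcript length, EPAS1 in WT8 went from 8.82 ± 0.88% in the libraries with dox to 14.8 ± 0.57% after withdrawal (SD, n = 4 each). In MUT10, it went from 4.21 ± 0.38% to 14.4 ± 2.56%, and in MUT35 from 8.22 ± 0.43% to 14.4 ± 1.2% (SD, n = 4 each). The share was higher after withdrawal in every library of each clone than in any library with dox, and MUT10 dox off replicate 4, at 10.73%, was the lowest of the 12 libraries after withdrawal. Such a share is free of library scaling but not of the GC slope, since the transcripts differ in GC content.

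**Figure D1:**
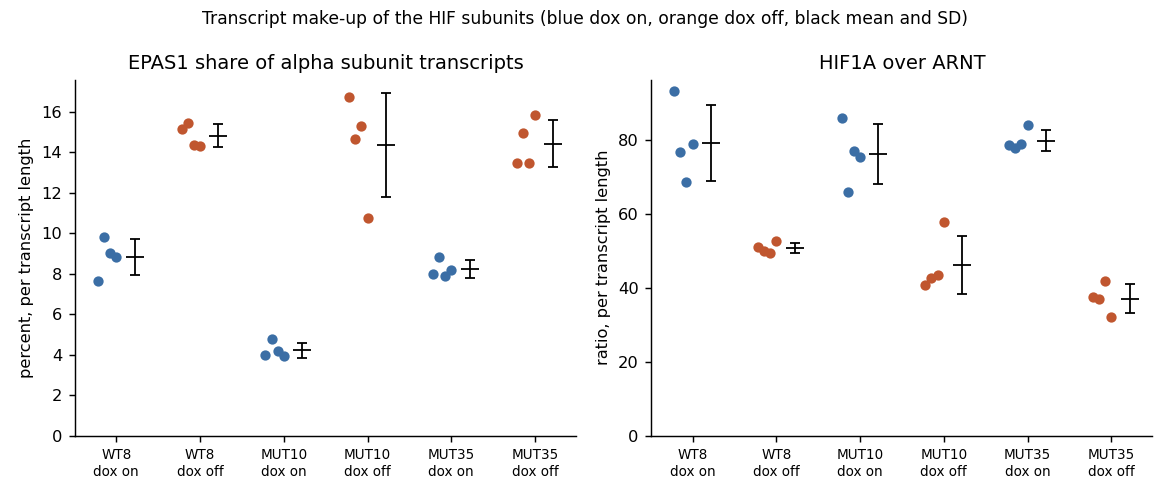
EPAS1 as a percent of the HIF1A, EPAS1 and HIF3A transcripts (left) and the ratio of HIF1A to ARNT (right), both per transcript length, for each of the 24 libraries in the 6 combinations of clone and dox. A point is a library, the bar beside each 4 points gives their mean and SD, and both vertical axes start at 0. In each clone the EPAS1 share is higher and the HIF1A to ARNT ratio lower after withdrawal, with MUT10 dox on at 3.94 to 4.76% EPAS1. The GC trend was not removed from either quantity.

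HIF3A (ENSG00000124440, chr19:46297042-46343433 on the plus strand) encodes alpha subunit variants of which some restrain the other subunits, and it is itself known as a HIF target. It was close to the floor in all 24 libraries, with 0 to 12.45 counts, and did not pass the filter. In WT8 it had 1.02, 2.04, 1.27 and 2.63 counts with dox (0.120 to 0.301 CPM) and 6.22, 6.28, 12.45 and 6.43 counts after withdrawal (0.514 to 0.656 CPM). A fit with no filter did not call this difference (adjusted p = 0.0895), and no fold is given, since every WT8 library with dox was under 3 counts. MUT10 ranged from 0.149 to 0.734 CPM with dox and from 0.310 to 0.483 CPM after withdrawal, and MUT35 from 0.108 to 0.575 and from 0 to 0.753 CPM, with overlap in both. A count of 3, taken as the limit that a count of 0 allows, corresponded to 0.358 CPM in the MUT35 library at 0. Smaller differences were not detectable at this depth.

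ARNT (ENSG00000143437, chr1:150809713-150876708 on the minus strand) encodes HIF1B, the partner shared by the alpha subunits and by other factors such as the aryl hydrocarbon receptor AHR. It rose modestly after withdrawal in all 3 clones, with either scaling. WT8 had 28.6, 31.1, 35.02 and 30.7 CPM with dox and 35.8, 36.4, 38.7 and 35.3 CPM after withdrawal. MUT10 had 32.1, 37.8, 34.97 and 36.1 CPM with dox and 43.4, 47.9, 44.9 and 42.7 CPM after withdrawal, and MUT35 had 34.8, 35.5, 36.6 and 32.9 CPM with dox and 46.0, 44.5, 41.8 and 45.7 CPM after withdrawal. The dox states were well apart in both knockout clones and close in WT8, where dox on replicate 3 came near the libraries after withdrawal.

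The log2 fold change of ARNT was 0.22 in WT8 (SE 0.068, adjusted p = 0.00804), 0.34 in MUT10 (SE 0.066, adjusted p = 6.68e-05) and 0.35 in MUT35 (SE 0.066, adjusted p = 5.84e-05). With the GC trend removed it was 0.34 (adjusted p = 0.000187), 0.45 (adjusted p = 4.17e-07) and 0.46 (adjusted p = 5.68e-07). The difference of this effect between the mutant clones and WT8 was not called (0.13, SE 0.083, adjusted p = 0.302), nor was that between MUT10 and MUT35 (-0.01, SE 0.093, adjusted p = 0.975). After withdrawal ARNT was higher in the mutant clones than in WT8 by 0.29 (SE 0.057, adjusted p = 0.000123), and their libraries (41.8 to 47.9 CPM) did not overlap those of WT8 (35.3 to 38.7 CPM). With dox the difference was 0.16 (SE 0.060, adjusted p = 0.0352), a call lost when 1 of 5 libraries was left out, WT8 dox on replicate 1, 2 or 4 or MUT35 dox on replicate 2 or 3 (0.13 to 0.16, adjusted p up to 0.128). The ratio of HIF1A to ARNT transcripts, per length, was 79.4 ± 10.3 and 50.9 ± 1.4 (SD, n = 4 each) in WT8 with dox and after withdrawal, 76.3 ± 8.2 and 46.2 ± 7.9 (SD, n = 4 each) in MUT10, and 80.0 ± 2.8 and 37.1 ± 4.0 (SD, n = 4 each) in MUT35. This ratio is not free of the GC slope, since HIF1A (39.4% GC) is poorer in GC than ARNT (46.2%). With the GC trend removed, HIF1A was not called lower in WT8 (0.05) or MUT10 (0.06), while ARNT was still called higher.

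ARNT2 (ENSG00000172379, chr15:80404350-80597933 on the plus strand) encodes a further beta subunit, best known from the nervous system. It was found mainly in MUT35 and passed the filter through that clone. MUT35 had 4.10, 4.06, 4.27 and 3.19 CPM with dox (38 to 59 counts) and 6.78, 5.85, 6.39 and 7.10 CPM after withdrawal (49 to 66 counts). WT8 had 0.359 to 0.870 CPM with dox and 0.492 to 0.685 CPM after withdrawal, on 2 to 9 counts, and MUT10 had 0 to 0.291 and 0 to 0.207 CPM, on 0 to 3 counts. All 8 MUT35 libraries thus lay above all 16 others, in both dox states. The MUT10 values lay below those of WT8, but this order is not resolved at such counts. In the MUT10 libraries at 0, a count of 3 corresponded to 0.359 CPM (dox on replicate 1) and 0.367 CPM (dox off replicate 3), which reaches the lowest WT8 library.

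In MUT35, ARNT2 rose after withdrawal by 0.74 on the log2 scale (SE 0.18, adjusted p = 0.00107), a 1.67-fold change, and by 0.54 (adjusted p = 0.0120) with the GC trend removed. No change was called in WT8 (-0.03, SE 0.37, adjusted p = 0.959), where a library held at most 9 counts. In MUT10 every library was at or under 3 counts, the limit that a count of 0 allows, so no fold is given (adjusted p = 0.740). The difference between the effects of MUT10 and MUT35 was not called either (adjusted p = 0.449), so at this depth the rise was not shown to be particular to MUT35. Per kilobase, ARNT2 in MUT35 reached 0.599 CPM per kb with dox and 1.00 CPM per kb after withdrawal, against 7.42 and 9.45 CPM per kb for ARNT in the same clone.

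**Figure D2:**
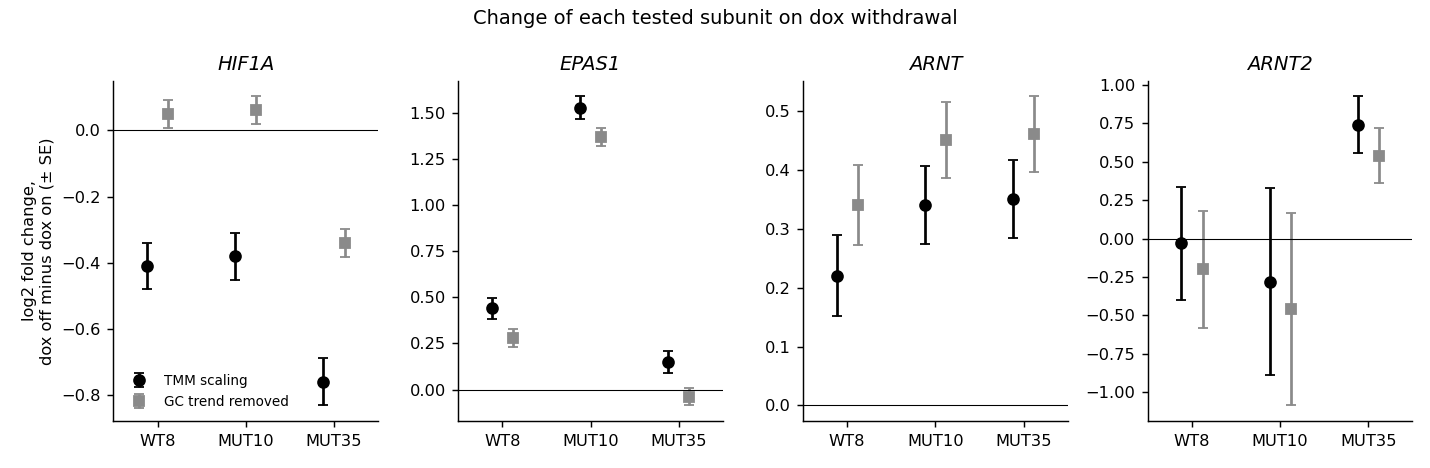
Log2 fold change of HIF1A, EPAS1, ARNT and ARNT2 on dox withdrawal (vertical axes, dox off minus dox on, bars are standard errors of edgeR's fit over 24 libraries) in the 3 clones (horizontal axes). Black circles are the fit with TMM scaling and grey squares the fit with the GC trend removed. HIF1A moves from -0.41 to 0.05 in WT8 and from -0.38 to 0.06 in MUT10 between the scalings and stays below 0 in MUT35, while ARNT is above 0 in all 3 clones with both.

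Counted over the 4 genes that passed the filter, 2 were called higher after withdrawal and 1 lower in WT8, where 29.5% of all genes tested were called higher and 29.8% lower. In MUT10, 2 were called higher and 1 lower, against 33.8% and 32.3% of all genes, and in MUT35, 3 were called higher and 1 lower, against 32.0% and 31.3%. With the GC trend removed, calls in either direction numbered 2 in WT8, 2 in MUT10 and 3 in MUT35, where all genes gave 40.4%, 61.3% and 52.7%. In the mutant clones minus WT8, 1 was called higher and 0 lower (12.1% and 11.4% of all genes), and 2 were called with the GC trend removed (32.8%). For MUT10 minus MUT35, 2 were called with either scaling (11.1% of all genes, and 18.6% with the GC trend removed). Between the mutant clones and WT8, 1 was called after withdrawal (55.8%) and 2 with dox (43.2%). The 4 genes passed only where they had enough counts, so these numbers stand for them alone. ARNT2 passed through MUT35, with at most 9 counts in a WT8 library and 3 in a MUT10 library. It could hardly be called within WT8 or MUT10, so the tallies cannot be compared between the clones.

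The enzymes that mark HIF alpha for VHL were all measured. EGLN1 (PHD2), the main HIF prolyl hydroxylase, was at 69.1 to 79.8 CPM with dox and 50.1 to 53.4 CPM after withdrawal in WT8, at 59.9 to 76.7 and 102 to 144.5 CPM in MUT10, and at 67.2 to 78.9 and 91.8 to 109 CPM in MUT35. It fell in WT8 (log2 fold change -0.55, SE 0.095, adjusted p = 2.62e-05) and rose in MUT10 (0.75, SE 0.091, adjusted p = 7.84e-08) and MUT35 (0.46, SE 0.091, adjusted p = 9.13e-05), with the same calls after the GC trend was removed. EGLN3 (PHD3), a hydroxylase known as a HIF target, was at 5.23 to 7.30 CPM with dox and 18.7 to 21.3 CPM after withdrawal in MUT10 and at 4.32 to 6.15 and 8.96 to 9.97 CPM in MUT35. It rose in both (1.72 and 0.76, adjusted p = 3.42e-11 and 6.45e-05) and was not called in WT8 (-0.25, adjusted p = 0.234).

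In the difference of the effects, mutant clones minus WT8, EGLN1 had 1.16 (SE 0.12, adjusted p = 1.66e-08) and EGLN3 1.49 (SE 0.21, adjusted p = 4.11e-06). EGLN2 (PHD1) was called higher in all 3 clones with TMM scaling (0.61, 0.37 and 0.28), but with the GC trend removed it was at 0.00 in WT8, -0.24 in MUT10 and -0.38 in MUT35, called lower in MUT35 (adjusted p = 0.00139). HIF1AN is the asparaginyl hydroxylase that limits the activity of HIF alpha. With TMM scaling it was called higher in MUT10 (0.27, adjusted p = 0.00157) and MUT35 (0.20, adjusted p = 0.0165) and had 0.13 in WT8 (adjusted p = 0.133). With the GC trend removed it was called higher in WT8 too (0.23, adjusted p = 0.0185), beside 0.36 in MUT10 and 0.28 in MUT35. Its difference of effects, mutant clones minus WT8, was not called (0.10, adjusted p = 0.444). All 4 hydroxylases were thus called higher in MUT10 and in MUT35 with TMM scaling, where 33.8% and 32.0% of all genes were called higher, with medians of 0.56 and 0.37 against 0.036 and 0.014 over all genes. In WT8, 1 was called higher and 1 lower, against 29.5% and 29.8% of all genes.

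All 7 genes listed for the VHL ubiquitin ligase passed the filter, and after withdrawal none was called higher in any clone. Of the 7, 5 were called lower in WT8, 6 in MUT10 and 5 in MUT35, VHL among them, against 29.8%, 32.3% and 31.3% of all genes. VHL is the gene set by dox, so its own call in each clone was fixed by the design. The medians were -0.49, -0.64 and -0.58, against 0.007, 0.036 and 0.014 over all genes. The counts with the GC trend removed were the same, where 40.4% (WT8), 61.3% (MUT10) and 52.7% (MUT35) of all genes were called in either direction. The genes were not the same: CUL2, the cullin scaffold, had 0.02 in WT8 (adjusted p = 0.825) after the correction, against -0.49 before. In the mutant clones minus WT8, VHL (-0.79, SE 0.11, adjusted p = 3.20e-06) and NEDD8 (-0.24, SE 0.088, adjusted p = 0.0470), the ubiquitin-like protein that activates cullins, were called lower.

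Of 17 other genes listed with the bHLH-PAS family, coactivators and PER1, PER2 and PER3 among them, 13 passed the filter. In the mutant clones minus WT8, 3 were called higher and 1 lower (12.1% and 11.4% of all genes), with a median of 0.03 against 0.007 over all genes. After removal of the GC trend 4 were called higher and 3 lower, where 32.8% of all genes were called in either direction. NPAS2, a clock factor, had 0.85 (SE 0.16, adjusted p = 0.000240), and its own rises were 1.95 for MUT10, 1.17 for MUT35 and 0.71 for WT8. AHR, the dioxin receptor, which pairs with ARNT, had 0.55 (SE 0.11, adjusted p = 0.000620): it was called lower in WT8 (-0.28, adjusted p = 0.0135) and higher in MUT35 (0.40, adjusted p = 0.000427) and had 0.15 in MUT10 (adjusted p = 0.134). Once the GC trend was removed, WT8 had 0.12 and was not called, and MUT10 had 0.52 (adjusted p = 1.46e-09) and MUT35 0.76 (adjusted p = 5.79e-13). NCOA3, a steroid receptor coactivator, was the gene called lower (-0.27, SE 0.089, adjusted p = 0.0298).

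All 20 HIF cofactors and regulators passed the filter. In the mutant clones minus WT8, 4 were called higher and 1 lower (12.1% and 11.4% of all genes). When the GC trend was removed, 3 were called higher and 7 lower, where 32.8% of all genes were called in either direction. Within the clones their balance turned with the scaling: in MUT10, 10 were called higher and 7 lower with TMM scaling (33.8% and 32.3% of all genes), and 5 and 12 with the GC trend removed (61.3% of all genes in either direction). In the mutant clones minus WT8, KDM4C, a histone demethylase reported to assist HIF1A, had 1.01 (SE 0.16, adjusted p = 2.41e-05). OS9, a lectin of the endoplasmic reticulum reported to bind HIF1A, had 0.40 there (SE 0.092, adjusted p = 0.00225). Within the clones OS9 was called higher in MUT10 (0.54, adjusted p = 6.83e-07) but not in MUT35 (0.10, adjusted p = 0.266) or WT8 (-0.08, adjusted p = 0.389). With the GC trend removed it was called higher in MUT10 (0.29) and lower in MUT35 (-0.18, adjusted p = 0.0277) and WT8 (-0.33). RUVBL1, an ATPase of chromatin complexes, had -0.64 in the mutant clones minus WT8 (SE 0.076, adjusted p = 3.26e-07). It fell in all 3 clones, on the log2 scale, with -1.01 for MUT10, -0.64 for MUT35 and -0.18 for WT8.

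Genes reported elsewhere as targets were described in 2 lists, by the alpha subunit they are mostly credited to. Of 20 credited to HIF1A, 19 passed the filter. After withdrawal 18 were called higher and 0 lower in MUT10 (median 1.32), 16 higher and 0 lower in MUT35 (median 0.76), and 6 higher and 8 lower in WT8 (median -0.17). Over all genes, 33.8%, 32.0% and 29.5% were called higher in these clones and 32.3%, 31.3% and 29.8% lower. With the GC trend removed, 19 of the listed genes were called higher in MUT10 (median 1.19) and 18 in MUT35 (median 0.75), with 0 lower in both. WT8 then had 4 higher, 5 lower and 10 not called (median -0.08). The share of all genes then called, in either direction, was 61.3% in MUT10, 52.7% in MUT35 and 40.4% in WT8. With TMM scaling, 17 were called higher in the mutant clones minus WT8 (12.1% of all genes), with a median of 0.97. BNIP3, a mitophagy receptor, had 1.49 (SE 0.065, adjusted p = 2.53e-15) there, and PGK1, a glycolytic enzyme, also had 1.49 (SE 0.072, adjusted p = 2.84e-14). BNIP3 levels in MUT10 were 235 ± 10.7 CPM and 578 ± 34.6 CPM in the libraries with and without dox (SD, n = 4 each), while HIF1A went the other way with TMM scaling and was at 0.06 with the GC trend removed.

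Of 20 credited to EPAS1, 13 passed. In MUT10, 9 were called higher and 3 lower (median 1.24), in MUT35 12 higher and 0 lower (median 0.93), and in WT8 9 higher and 1 lower (median 0.35), beside the same shares of all genes as for the HIF1A list. With the GC trend removed the counts were 9 and 4 in MUT10 (median 1.23), 11 and 1 in MUT35 (median 0.51) and 5 and 1 in WT8 (median 0.09). Of all genes, 61.3% in MUT10, 52.7% in MUT35 and 40.4% in WT8 were then called in either direction. In the mutant clones minus WT8, 8 were called higher and 2 lower (12.1% and 11.4% of all genes), with a median of 0.71. NDRG1, a stress-response protein, had 2.47 (SE 0.099, adjusted p = 5.88e-16) and ADM, the vasodilator adrenomedullin, 2.46 (SE 0.14, adjusted p = 5.53e-13). MMP14, a membrane metalloproteinase, was called lower at -0.35 (SE 0.085, adjusted p = 0.00316). Within the clones it was called higher in WT8 (0.47, adjusted p = 4.13e-06) and was not called in MUT10 (-0.02, adjusted p = 0.853). With the GC trend removed these were 0.03 (adjusted p = 0.6) and -0.45 (adjusted p = 6.94e-10). MMP14 turned with the scaling in MUT35, from 0.26 to -0.21 with the GC trend removed (adjusted p = 0.00333 and 0.00083).

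The genes whose 6 group means of log2 CPM, each centred on its own mean, were nearest to those of a subunit were found among the 10732 tested genes that averaged 50 counts or more. For HIF1A they were WTAP, a component of the RNA methylation complex (root mean square difference 0.052 on the log2 scale), and PIN4, a prolyl isomerase (0.059), and 0.64% of the genes searched lay within 0.1 of HIF1A. For EPAS1 they were ACTR1B, a dynactin subunit (0.145), and HUNK, a kinase (0.149), with no gene within 0.1. ARNT was nearest to GET4 (0.037) and ATXN7 (0.042), with 1.13% of genes within 0.1. ARNT2 was nearest to FBN1, the microfibril protein fibrillin (0.263), and TUBB4A, a tubulin (0.468), again with no gene within 0.1. The measure is over 6 means that share the dox state and its GC slope, and it describes the pattern only.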

How the data were processed

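RNA-seq was made from WT8, MUT10 and MUT35 HK2 cells with and without dox, 4 libraries per group and 24 in all. The sample labels describe a KAPA stranded kit and the paper's methods a Lexogen kit, and which applies is not known here. The authors mapped reads to hg38 with RSEM and Bowtie2 (named in the submitters' processing notes as well; versions and annotation are not given in the sources used here) and deposited RSEM expected counts per gene symbol, which are not scaled to library size. Library totals were 5206663 to 18196003 counts, and a count of 3 corresponded to 0.164 to 0.569 CPM. Such limits cover counting error only.

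After rounding to integers, genes were filtered with filterByExpr (13900 kept) and libraries scaled by TMM in edgeR 4.0.16 (R 4.3.3). The quasi-likelihood test was fitted over all 24 libraries with a mean for each group, and p-values were adjusted by Benjamini-Hochberg over all genes, with a threshold of 0.05. A prior count of 2 went into log2 CPM. The median log2 fold change of all genes lay within 0.05 of 0 in each comparison. Nothing says that replicates were separate cultures, so p-values measure the spread between libraries, which may be technical. Exact permutation tests were 2-sided. The GC trend of each library was removed as a smooth curve over genes averaging 20 counts or more, for the 13479 tested genes (97%) with a known GC content. Levels per length used the canonical transcript of GENCODE 44 (hg38). Promoter sequences are from RefSeq (GRCh38.p14).

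The 5 genes and the lists were chosen with earlier results of these data known. Named besides them were, from each list, up to 2 genes in each direction with the smallest adjusted p in the mutant clones minus WT8, every gene of a list of up to 4, the 2 genes most like each subunit, genes whose exons overlap a subunit, and VHL. A gene that this rule names is not reported here. Alternatives were RLE factors, library size alone, DESeq2 1.42.0, limma-voom (limma 3.58.1), no filter, at least 10 counts in every library, a replicate block, only the libraries compared, leaving out each library, and leaving out 2 MUT10 libraries. Symbols were matched to current names through RefSeq synonyms (for example ELOB and ELOC). Replicate numbers did not mark shared cultures in the labels. HIF1A-AS3 was not analysed here. Scripts ran under Python 3.11.15 with scipy 1.17.1.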

Additional observations from a re-analysis of the deposited data

Results flagged for a closer look

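In HIF1A, WT8 dox on replicate 1 was at 2241 CPM, far above the other 3 libraries of its group, which lay between 1998.5 and 2029 CPM. That library had the steepest negative GC slope of all 24 (-0.3432), and with the GC trend removed it lay among the others at 10.80 log2 CPM, in a range of 10.73 to 10.82. In EPAS1, MUT10 dox off replicate 4 was at 325 CPM, below the other 3 at 383 to 389 CPM. Its GC slope of -0.0099 also set it apart from its group, and with the GC trend removed it was still the lowest, at 8.33 against 8.49 to 8.51 log2 CPM. In ARNT2, MUT10 dox off replicate 3 was at 0 CPM, while the other 3 libraries of that group each held 2 counts. Over the 30 groups checked, chance alone would single out about 1 in 20, and 3 were found.

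Effects that differed between groups by test were those of EPAS1 in the mutant clones minus WT8 (0.40 on the log2 scale), of EPAS1 in MUT10 minus MUT35 (1.39) and of HIF1A in MUT10 minus MUT35 (0.38). For EPAS1 the mutant clones lay on both sides of WT8, MUT10 above it (1.53 against 0.44) and MUT35 below it (0.15). Without MUT10 dox off replicate 4 and MUT10 dox on replicate 2, the HIF1A difference of MUT10 minus MUT35 was 0.24 (adjusted p = 0.0314).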

How the results depend on the processing

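The lower HIF1A level after withdrawal seen with TMM scaling was not called in WT8 and MUT10 with the GC trend removed, and was still called in MUT35. With that trend removed, HIF1A was at 0.05 in WT8 and 0.06 in MUT10, in each case the same with a replicate block added, and at 0.05 and 0.08 when MUT10 dox off replicate 4 and dox on replicate 2 were left out as well, an alternative chosen after seeing the data. EPAS1 in MUT35 was at -0.04 in those 3 fits and at 0.11 (adjusted p = 0.177) with no filter, and ranged from 0.12 to 0.18 when single libraries were left out. The HIF1A effect of the mutant clones minus WT8 was called with the GC trend removed (-0.19) and with the block added to that (-0.19). It was also called without those 2 MUT10 libraries (-0.25, and -0.18 with the GC trend removed), and ran from -0.21 to -0.11 without single libraries. With the GC trend removed, MUT35 alone had an effect below that of WT8.

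The ARNT effect of MUT10 minus MUT35, -0.01, was 0.01 with no filter, 0.00 with at least 10 counts in every library, 0.03 without the 2 MUT10 libraries, 0.10 without them and without the GC trend, and -0.05 to 0.02 without single libraries. That of VHL ran from -0.10 to 0.06. HIF1A with dox was called higher in the mutant clones by DESeq2 and limma-voom (0.15 each), with no filter (0.16), with the GC trend removed (0.17, also with the block), in a fit of only the libraries compared (0.14), and without the 2 MUT10 libraries (0.19, and 0.16 with the GC trend removed), with 0.13 to 0.19 without single libraries. After withdrawal the same difference ran from -0.06 to 0.03. ARNT with dox was no longer called with library size alone (0.15, adjusted p = 0.0545) or in a fit of only the libraries compared (0.15, adjusted p = 0.0779), and ran from 0.13 to 0.22 without single libraries. For ARNT2 after withdrawal, limma-voom called the mean of MUT10 and MUT35 against WT8 (0.79, adjusted p = 0.041), although MUT35 alone lay above WT8. The MUT10 counts were too near the floor to be ordered against WT8. The withdrawal effect of ARNT2 ran from -0.21 to 0.21 in WT8. In MUT10 it ran from -0.58 to 0.03, as a fitted value on counts at the floor that is no measure of a fold.

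Removal of the GC trend left 5449 genes called in WT8 (5486 with the block) against 8246, and 2506 in MUT10 minus MUT35 (2550 with the block) against 1544; the latter was 2616 without the 2 MUT10 libraries and 2544 with both. In the lists, bHLH-PAS genes called lower in the mutant clones minus WT8 went from 1 to 3 and cofactors called lower from 1 to 7. Of all genes, 12.1% were called higher and 11.4% lower before, and 32.8% in either direction after. The other fits kept direction and call: 804 of the log2 fold changes with 1 library left out and 377 under the other alternatives. Replicate numbers did not meet the rule for pairing, which asks for every correlation over 0.1: correlations of same-numbered deviations ran from -0.153 to 0.29, 2 of 12 were over 0.1, and 6 of 12 libraries with dox correlated best with their own number, among them all 4 of MUT35. A replicate block alone changed no call for the 4 genes that passed the filter (EPAS1 in MUT10 1.53, adjusted p = 3.81e-17). Depth limits HIF3A, and ARNT2 outside MUT35.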
